A study of Drosophila melanogaster with 8 samples.

Results

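The genes described here are 35 spliceosome and splicing factor genes of Drosophila melanogaster. Cypl, the fly homolog of human PPIL1, a peptidyl-prolyl isomerase of the catalytic spliceosome, was chosen because its level was lower in STIM KO brains. The other 34 were listed from knowledge of the machinery, as subunits of the small nuclear ribonucleoproteins (snRNPs), of the Prp19 complex, and SR proteins. They answer whether the low level of Cypl extended to the genes of its complex. Of the 17225 genes and unmatched features in the count files, 5540 passed an expression filter and were tested, and 25 of the 35 genes were among them.

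RNA from brains of second instar larvae was sequenced in 4 libraries of CS (the wild-type strain Canton S) and 4 libraries of STIM KO, a null mutant of Stim, the gene of the calcium entry regulator STIM. Each library was made from a separately isolated pool of brains. CS larvae were 58 to 62 h and STIM KO larvae 72 to 76 h after egg laying, ages chosen by the study so that both were at a comparable stage. Genotype and age therefore differed together and cannot be told apart in any value below.

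The spliceosome removes introns from pre-mRNA. U1 snRNP binds the start of the intron, U2 snRNP binds the branch point with the help of U2AF, and the tri-snRNP of U4, U6 and U5 then joins. U4 leaves, the Prp19 complex arrives, and the catalytic core forms around Prp8. Every snRNP except that of U6 carries the same ring of Sm proteins, which is built from the pairs SmB with SmD3 and SmD1 with SmD2 and from a trimer of SmE, SmF and SmG. SR proteins bind exons and recruit U1 snRNP and U2AF. Core genes serve every cell that splices, and the nervous system is known for its rich alternative splicing.

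Transcripts received 395680 to 2090717 counted reads in a library. In each genotype, the replicates numbered 1 and 2 formed a shallow library set, with 395680 to 1129439 counted reads and 9.89% to 18.0% ambiguous ones, and those numbered 3 and 4 a deep set, with 1626626 to 2090717 counted reads and 33.5% to 34.5% ambiguous ones. The labels name no batch, and values within each set are given beside the pooled ones. Stim itself, summed over its transcripts, had counts of 6, 4, 12 and 14 in the CS libraries (replicates 1 to 4) against 14, 19, 3 and 2 in those of STIM KO, so the genotypes overlapped in this sum. Its transcript NM_001298380.1 had counts of 2, 3, 6 and 9 in CS, and of 0 in every STIM KO library. All 5 neuron markers on the list (elav, nSyb, brp, Syt1 and Syx1A) were counted, with a summed level of 446 to 4816 CPM in CS and 701 to 5321 CPM in STIM KO. CPM are counts scaled for library size, here with TMM factors.

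Among the 35 genes, those with 1 RefSeq transcript had the more reads. The counts are per transcript. In its default mode htseq-count then sets a read that fits several transcripts aside as ambiguous, though the mode used here is not given. All 19 of the genes with 1 transcript passed the filter, with 444 reads (Sf3b5) to 5295 reads (Srp54) summed over the 8 libraries. Of the 16 genes with 2 or more transcripts 6 passed, from SC35 with 172 reads to SF2 with 2295. Of the 10 genes that did not pass, hoip and barc had no read, SmG had 1, and the others had between 9 and 52. Hence SmG, Sf3b1, Sf3b3, U2af50, Prp3, hoip, barc, x16, B52 and tra2 were not tested, and no direction is given for them. Over all genes the filter was passed by 35.8% of those with 1 transcript, 20.7% of those with 2 and 34.8% of those with 3 or more, so the number of transcripts alone did not order the genes.

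**Figure D1:**
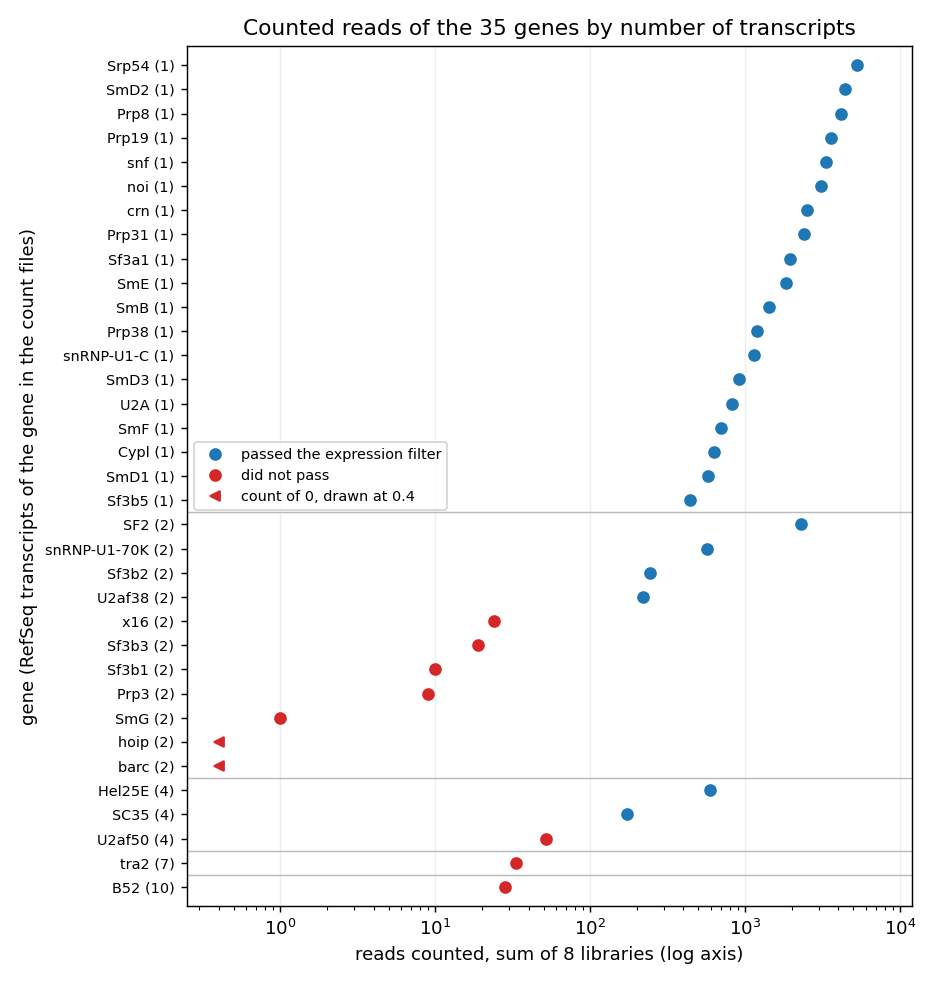
Reads counted for each of the 35 genes, summed over 8 libraries (log axis), with the number of RefSeq transcripts of each gene in parentheses. All 19 genes with 1 transcript lie above 400 reads, and the 10 genes that did not pass the expression filter (red) all have 2 or more transcripts and at most 52 reads.

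Cypl lies on chromosome 3L from 542122 to 542931 in the dm6 assembly, has 2 exons, and overlaps the end of BORCS6 on the other strand by 26 bases. It had 101, 71.8, 101 and 95.4 CPM in the 4 CS libraries (replicates 1 to 4) and 11.8, 20.1, 21.0 and 19.5 CPM in those of STIM KO. Every CS library was above every STIM KO library. The mean was 92.4 ± 13.98 CPM in CS against 18.1 ± 4.22 CPM in STIM KO (SD, n = 4 each), a ratio of 5.10, and the fitted log2 fold change of STIM KO over CS was -2.34 (SE 0.43). Mean log2 CPM differed by -2.36 in the shallow and by -2.20 in the deep set. Since this difference chose the gene, no test of it is given. In whole brains, fewer cells of a type and less RNA per cell cannot be told apart, for Cypl or for any gene below.

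Per kilobase of exon the 19 genes with 1 transcript can be compared with each other. In CS the mean level ran from 51.6 ± 46.0 CPM per kb for Prp8 to 515 ± 565 CPM per kb for snRNP-U1-C (SD, n = 4), and Cypl at 129 ± 19.5 CPM per kb stood in place 12 of 19. In STIM KO, Cypl at 25.2 ± 5.88 CPM per kb was the lowest of the 19, next to Prp8 at 27.5 ± 8.21, and these neighbours did not differ beyond their spread. The top place of snRNP-U1-C held in replicates 1 and 2 (974.8 CPM per kb), and in replicates 3 and 4 it stood in place 18 (55.9 CPM per kb), where SmD2 was first. Cypl stood in places 13 and 10 of 19 in CS and in places 18 and 19 in STIM KO in the shallow and the deep set. Over all libraries SmD1 stood in place 11 in CS and 16 in STIM KO, SmD3 in places 6 and 15, and SmB in places 5 and 12. SmD2 stood in place 4 in CS and in place 1 in STIM KO.

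Of the other 24 tested genes, those nearest to Cypl were SmD3, SmD1 and SmB of the Sm ring and snRNP-U1-C, and most of the rest had small or opposite differences. By the quasi-likelihood test of edgeR, adjusted by Benjamini-Hochberg over all 5540 genes, none of the 24 genes was called at an adjusted p under 0.05, and none of all genes was (0%). At an unadjusted p under 0.05, SmB, SmD1 and SmD3 were lower and no gene was higher, which is 12.5% of the 24 genes lower, beside 2.96% of all genes lower and 3.54% higher. The median log2 fold change of the 24 genes was -0.26, beside 0.04 over all genes. Over all 8 libraries the genotypes did not overlap for SmB and SmD3, both lower, beside 3.01% of all genes lower and 3.21% higher.

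A fit with the library set as a term removed the difference between the sets from the spread. There SmD3 was called, 1 of 24 genes, beside 0.379% of all genes called lower (21 of 5540 genes) and 0.325% called higher. SmB, SmD1 and snRNP-U1-C were also lower at an unadjusted p under 0.05 and snRNP-U1-70K was higher, beside 8.03% and 8.94% of all genes. DESeq2 also called SmD3 and no other of the 24 genes, beside 1.41% of all genes, limma voom with sample weights likewise called SmD3 alone, beside 0.632% of all genes, and the fit with the replicate number as a block called none of the 24 genes, beside 0.289% of all genes. The median of the 24 genes in the fit with the set term was -0.42, beside 0.10 over all genes.

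**Figure D2:**
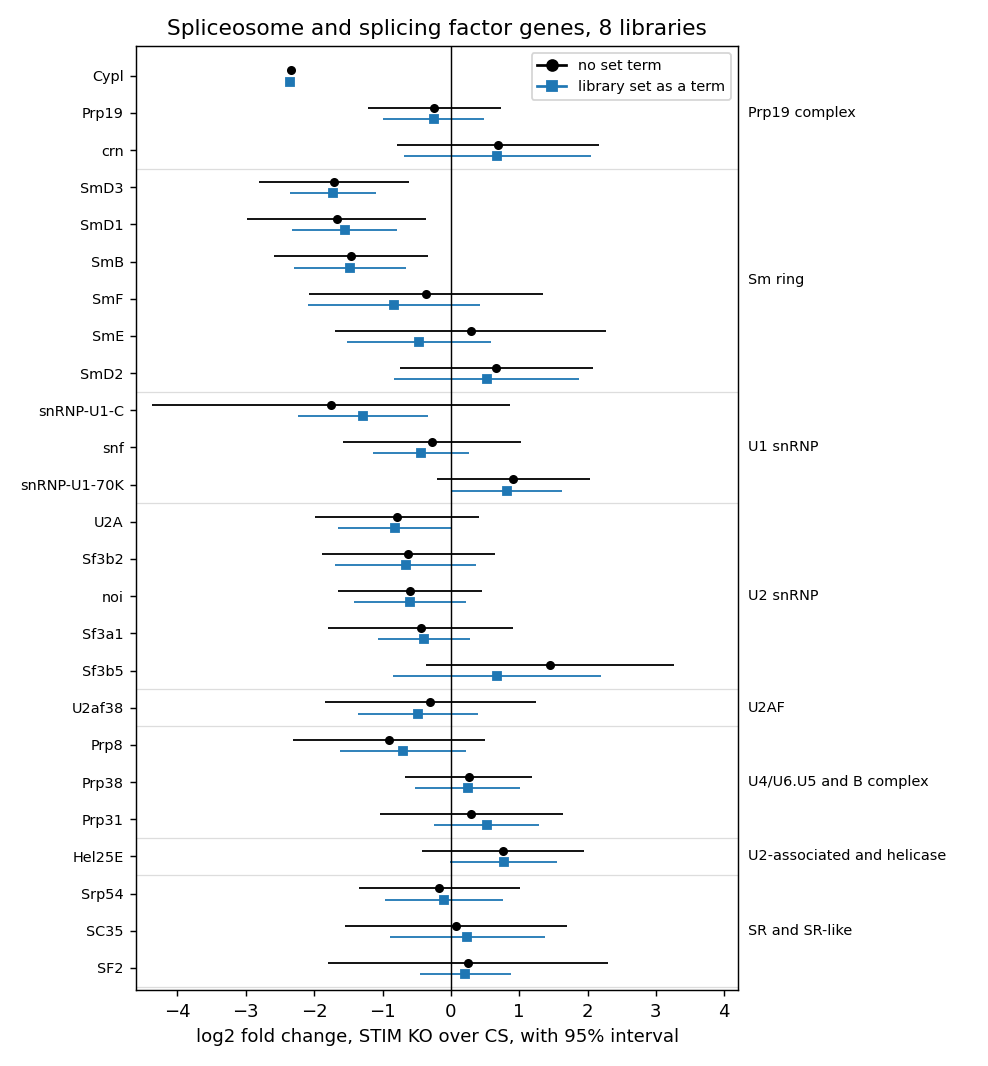
Fitted log2 fold change of STIM KO over CS for the 25 tested genes, by role, from edgeR without a set term (black circles) and with one for the library set (blue squares); lines are 95% intervals, and Cypl, chosen for its difference, is drawn without one. Without the set term, snRNP-U1-C, SmD3, SmD1 and SmB lie next to Cypl between -1.75 and -1.46. The interval of snRNP-U1-C there crosses 0, and so do most intervals of the remaining genes.

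In the Sm ring, SmD3, SmB and SmD1 had lower values in STIM KO in both library sets, and SmD2, SmE and SmF had differences of another direction or size in each set. SmD3 (chromosome 2R, 12168731 to 12170003, 2 exons), the partner of SmB, had 193, 225, 105 and 109 CPM in CS against 71.9, 57.4, 31.0 and 32.2 CPM in STIM KO. The lowest CS library was above the highest STIM KO library. Its mean was 158 ± 60.5 CPM in CS against 48.1 ± 20 CPM in STIM KO, a ratio of 3.28, and the log2 fold change was -1.71 (SE 0.49, 95% interval -2.81 to -0.61, edgeR adjusted p = 0.548). With the library set as a term it fell by 1.72 on the log2 scale (SE 0.28, edgeR adjusted p = 0.0291). This call rested on the full set of libraries: leaving out each library in turn kept the log2 fold change between -1.84 and -1.70, and the adjusted p lay between 0.0230 and 0.124, under 0.05 only without STIM KO replicate 1. The block on replicate number gave an adjusted p of 0.0915. SmD3 overlaps the antisense RNA gene asRNA:CR46194 by 279 of its 744 exon bases, and the libraries do not mark strand, so reads of these 2 genes cannot be told apart there.

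SmB (chromosome 2L, 10425483 to 10426627) had 228, 281, 164 and 175 CPM in CS against 147, 45.9, 48.1 and 67.3 CPM in STIM KO. STIM KO replicate 1 came close to the CS range without reaching it, and the other 3 libraries were far below. The ratio of means was 2.75 and the log2 fold change -1.46 (SE 0.50, edgeR adjusted p = 0.650). With the set term it was -1.47 (SE 0.37, adjusted p = 0.0970). Mean log2 CPM differed by -1.60 in the shallow and by -1.55 in the deep set, so that the partners SmB and SmD3 had like differences in both sets. For genes without overlap, an exact 2-sided permutation test over 70 labelings always gives its smallest p of 0.0286. It gave this for SmB and SmD3 and adds nothing to their lack of overlap.

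SmD1 (chromosome 3L, 12733364 to 12734611) had 155, 177, 68.3 and 45.6 CPM in CS against 45.3, 47.3, 17.1 and 29.7 CPM in STIM KO. Within each set both CS libraries were above both STIM KO libraries, and over all 8 libraries the groups overlapped, since levels were lower in replicates 3 and 4. The ratio of means was 3.20 and the log2 fold change -1.67 (SE 0.58, edgeR adjusted p = 0.650; with the set term -1.56, SE 0.35, adjusted p = 0.0763).

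SmD2, the partner of SmD1, did not follow it. It had 174, 185, 388 and 466 CPM in CS against 934, 561, 173 and 266 CPM in STIM KO, so that STIM KO was above CS in replicates 1 and 2 and below CS in replicates 3 and 4. Mean log2 CPM differed by 2.002 in the shallow and by -0.98 in the deep set. The pooled log2 fold change of 0.67 (SE 0.63, 95% interval -0.75 to 2.08) therefore averages opposite values.

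SmE and SmF, of the trimer with SmG, also had unlike differences in the shallow and the deep set. SmE had 294, 329, 135 and 112 CPM in CS against 514, 468, 28.6 and 52.7 CPM in STIM KO, a difference of 0.65 in mean log2 CPM in the shallow and of -1.63 in the deep set. SmF had 85.4, 124, 94.2 and 46.5 CPM in CS against 155, 77.5, 8.57 and 31.7 CPM in STIM KO, a difference of 0.09 and of -1.90. For both, the mean log2 CPM was lower in STIM KO only in the deep set. In the shallow set SmE was higher in STIM KO, and the genotypes overlapped for SmF. SmG, whose symbol in RefSeq is SNRPG, had 1 read in all.

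**Figure D3:**
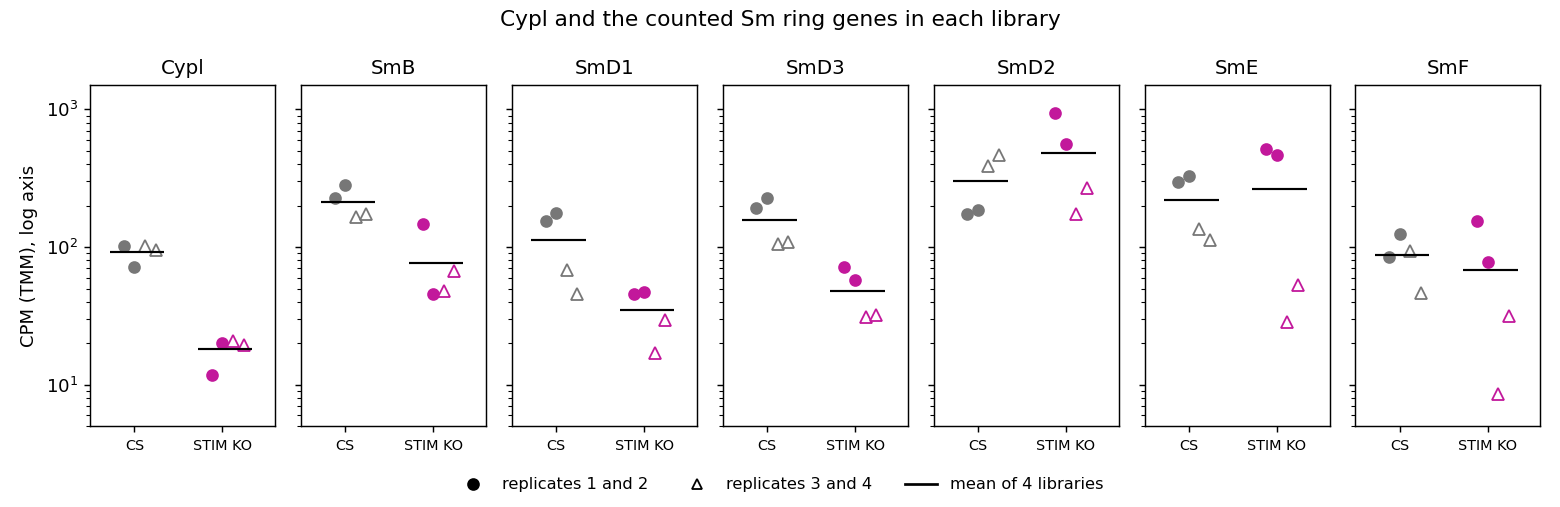
Level in each library (CPM, log axis) of Cypl and the 6 tested Sm ring genes in CS (grey) and STIM KO (magenta); circles are replicates 1 and 2, triangles are replicates 3 and 4, and bars are means of 4 libraries. Cypl, SmB, SmD1 and SmD3 are lower in STIM KO for both symbols, and for SmD2 and SmE the circles go up while the triangles go down.

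The genes of U1 snRNP differed from each other. snRNP-U1-C, which helps U1 to hold the start of the intron, had 506, 834, 41.9 and 34.9 CPM in CS against 100, 274, 16.7 and 30.7 CPM in STIM KO. It was lower in STIM KO within each set, but the sets differed far more than the genotypes, with a fitted log2 difference of -3.56 between replicates 3 and 4 and replicates 1 and 2 (edgeR adjusted p = 0.000207). Its log2 fold change was -1.75 (SE 1.17) without and -1.29 (SE 0.43, adjusted p = 0.163) with the set term. snRNP-U1-70K, which binds U1 RNA and contacts SR proteins, had 50.6, 41.9, 36.9 and 28.8 CPM in CS against 133, 67.4, 55.7 and 39.5 CPM in STIM KO. STIM KO was above CS in each set, with overlap at the edge over all 8 libraries, and the log2 fold change with the set term was 0.82 (SE 0.37, adjusted p = 0.292). All reads of snRNP-U1-70K were on 1 of its 2 transcripts, so the value is that of NM_001273244.1. snf, which serves U1 and U2 snRNP in flies, had means of 412 ± 169 CPM in CS against 341 ± 218 CPM in STIM KO (log2 fold change -0.27, SE 0.58), well within its spread.

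None of the 5 tested genes of U2 snRNP passed the test in either fit. U2A, which binds U2 RNA together with snf, had 28.5, 83.7, 105 and 97.0 CPM in CS against 34.5, 24.4, 63.8 and 60.0 CPM in STIM KO. Its libraries were lower in STIM KO except for CS replicate 1, which held 9 reads, and the log2 fold change was -0.79 (SE 0.54, edgeR adjusted p = 0.908). Of the SF3a complex, which is needed for U2 to bind the branch point, noi (the fly SF3a3) had a log2 fold change of -0.59 (SE 0.47) and Sf3a1 of -0.44 (SE 0.61). Sf3b2, of the SF3b complex that holds the branch point, had a log2 fold change of -0.62 (SE 0.57). Sf3b5, a small subunit of SF3b with 370 exon bases, had 28.5, 21.9, 38.7 and 17.7 CPM in CS against 153, 112, 11.9 and 18.5 CPM in STIM KO. Like SmD2 it was higher in STIM KO in replicates 1 and 2 (a difference of 2.32) and not in replicates 3 and 4 (-0.76), and its pooled log2 fold change of 1.45 (SE 0.81) was the highest of the 25 genes. Of U2AF, which marks the end of the intron, the small subunit U2af38 had means of 29.6 ± 15.9 CPM and 23.8 ± 16.7 CPM (log2 fold change -0.30, SE 0.69), and the large subunit U2af50 had 52 reads in all.

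Prp8, the scaffold of the catalytic core, had 126, 217, 886 and 307 CPM in CS against 182, 132, 273 and 231 CPM in STIM KO. CS replicate 3 stood above the other 7 libraries, which lay between 126 and 307 CPM, and the log2 fold change was -0.91 (SE 0.63, edgeR adjusted p = 0.909). Prp31, which joins U4 and U6 with U5, had 50.6, 71.8, 245 and 233 CPM in CS against 174, 97.6, 228 and 246 CPM in STIM KO. Its level in replicates 3 and 4 was nearly the same in both genotypes (a difference of -0.02 in mean log2 CPM), and the pooled log2 fold change was 0.30 (SE 0.60). Prp38, needed to activate the assembled spliceosome in yeast, had means of 93.4 ± 26.1 CPM and 113 ± 32.1 CPM (log2 fold change 0.26, SE 0.41).

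The Prp19 complex is the one in which Cypl acts, and its other genes among the 35 were Prp19 and crn. Prp19, the ubiquitin ligase that gives the complex its name, had 294, 327, 299 and 397 CPM in CS against 134, 350, 299 and 332 CPM in STIM KO. Only STIM KO replicate 1 was low, and the log2 fold change was -0.24 (SE 0.44, 95% interval -1.22 to 0.74). crn (crooked neck), a scaffold protein of the complex, had 63.2, 134, 204 and 239 CPM in CS against 596, 96.1, 158 and 184 CPM in STIM KO. Here STIM KO replicate 1 was the highest of the 8 libraries, and without it the log2 fold change of 0.68 (SE 0.66) became -0.17.

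Of the helicases and U2-associated genes only Hel25E was tested, the fly UAP56, which acts early in assembly and in mRNA export. It had 15.8, 25.9, 47.8 and 39.9 CPM in CS against 28.6, 44.5, 80.5 and 70.2 CPM in STIM KO. Within each set both STIM KO libraries were above both CS libraries, by 0.77 in replicates 1 and 2 and by 0.76 in replicates 3 and 4 in mean log2 CPM, and the log2 fold change with the set term was 0.77 (SE 0.35, edgeR adjusted p = 0.300). All its reads were on 1 of its 4 transcripts, so the value is that of NM_001273171.1.

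The SR and SR-like genes that could be tested lay near 0. SF2, the fly SRSF1, had 588, 502, 93.3 and 79.3 CPM in CS against 458, 849, 112 and 81.4 CPM in STIM KO. The sets differed by -2.71 on the log2 scale (edgeR adjusted p = 0.000146) and the genotypes by 0.21 with the set term (SE 0.30, 95% interval -0.45 to 0.88). All reads of SF2 were on 1 of its 2 transcripts, NM_001260210.2. Srp54, an SR-like protein that binds U2AF, had 266, 327, 555 and 611 CPM in CS against 155, 545, 435 and 434 CPM in STIM KO, with a log2 fold change of -0.17 (SE 0.53). SC35, the fly SRSF2, had at most 18.5 CPM in CS and at most 19.1 CPM in STIM KO and a log2 fold change of 0.08 (SE 0.73).

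Within the sets the picture depended on the set. In replicates 3 and 4, which have more counted reads, 21 of the 24 genes had a lower mean log2 CPM in STIM KO (87.5%, beside 47.5% of all genes), and the exceptions were Hel25E, snRNP-U1-70K and SF2. Each of these exceptions has 2 or more transcripts, with all its reads on 1 of them. Both CS libraries were above both STIM KO libraries for 17 genes and below them for 2, beside 27.3% and 26.6% of all genes. All 18 of these genes with 1 transcript had a lower mean, beside 57.1% of all genes with 1 transcript. For 15 of these 18, both CS libraries were above both STIM KO libraries, beside 35.7% of all genes with 1 transcript. The median difference of the 24 genes was -0.70, beside 0.04 over all genes, and 6 genes were lower by more than 1, beside 7.71% of all genes. These were SmF, SmD3, SmE, SmB, SmD1 and Prp8, of which Prp8, SmD3 and SmF lie near each other on chromosome 2R, between 12154258 and 12184310. Over all genes with 1 transcript, such shares differed by exon length. Under 600 bases, 61.2% had a lower mean and 19.4% were lower by more than 1. From 600 to below 1000 bases, the range of SmB, SmD1 and SmD3, these shares were 70.3% and 16.4%. From 1000 to below 2000 bases they were 55.4% and 6.30%, and at 2000 or more 51.3% and 9.08%.

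A fit on these 4 libraries alone gave 10 genes lower and 1 higher at an unadjusted p under 0.05 by edgeR, beside 11.5% and 7.93% of all genes. They were all 6 tested Sm ring genes (log2 fold changes of -1.83 to -0.996), snf, U2A, noi and Prp8, and Hel25E was higher. All 10 lower genes have 1 transcript, and of all genes with 1 transcript 15.8% were lower at this p. No gene of any kind (0%) was called after adjustment over 6001 genes, at which 1169 had an unadjusted p under 0.05. With 2 libraries against 2 the spread is poorly known, and these p-values rest on it.

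In replicates 1 and 2 the same genes did not lean one way. A lower mean was found for 13 of 24 genes (54.2%, beside 45.1% of all genes), and the median difference was -0.02, beside 0.16. SmB, SmD1, SmD3 and snRNP-U1-C were lower at an unadjusted p under 0.05 and SmD2, Sf3b5 and crn were higher, of 23 genes tested there, beside 8.06% of all genes lower and 14.2% higher. The genes whose CS libraries lay above the STIM KO libraries in each of the sets were thus SmB, SmD1, SmD3 and snRNP-U1-C, 4 of 24, beside 9.31% of all genes. Those with the opposite order in each set were Hel25E and snRNP-U1-70K, beside 9.95%.

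**Figure D4:**
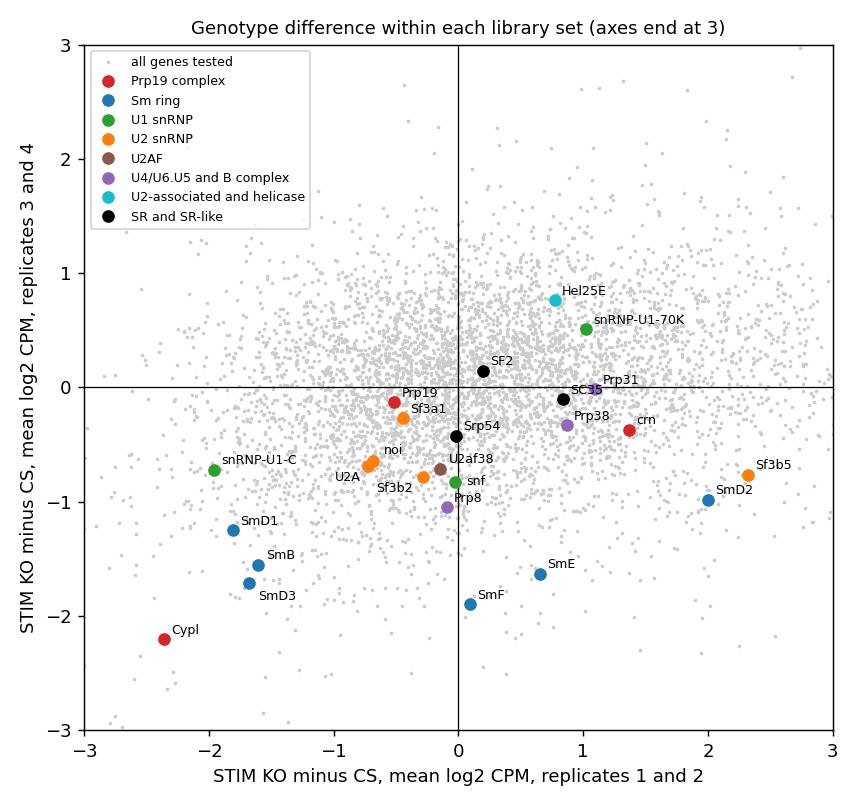
Difference in mean log2 CPM between STIM KO and CS in replicates 1 and 2 (x axis) and in replicates 3 and 4 (y axis) for the 25 tested genes, coloured by role, over all 5540 tested genes (grey; both axes end at 3). Most of the coloured points lie below the horizontal line at 0 and spread to both sides of the vertical one, with SmD1, SmB and SmD3 near Cypl at the lower left and SmD2 and Sf3b5 at the lower right.

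Whether the genotype difference itself differed between the sets was tested as an interaction. None of the 24 genes was called after adjustment, beside 0.0722% of all genes (4 of 5540). At an unadjusted p under 0.05, SmD2 (interaction -3.01, edgeR adjusted p = 0.0830), Sf3b5 (-3.29, adjusted p = 0.116) and SmE (-2.26, adjusted p = 0.137) had negative interactions, that is, lower values of the genotype difference in replicates 3 and 4, beside 11.4% of all genes, and none of the 24 had a positive one, beside 3.88%. Without STIM KO replicate 2, 4 of the 24 genes were called (SmD2, Sf3b5, SmE and crn), but so were 647 of all 6047 genes (10.7%), beside 7 or fewer when any other library was left out. Except for crn the 4 are short genes: SmE has 521 exon bases, SmD2 778 and Sf3b5 370. Over all genes with 1 transcript the median difference in replicates 1 and 2 was 0.63 for the 289 genes under 600 exon bases and 0.15 for the 1146 genes of 2000 or more, and in replicates 3 and 4 it was -0.27 and -0.02. The part of exon length in the values of the short genes was not tested.

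Between the sets, irrespective of genotype, 13 of the 25 genes were called, 4 higher and 9 lower in replicates 3 and 4, beside 26.7% and 23.3% of all genes. The lower ones included SmD1, SmD3, SmE and SmF of the Sm ring, snf and snRNP-U1-C, and the higher ones Prp8, Prp31, Hel25E and SC35.

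Marker genes of cell types differed between the same libraries. The 5 neuroblast markers on the list (dpn, mira, ase, wor and insc) summed to 1097 to 1284 CPM in CS and 302 to 1351 CPM in STIM KO, with a median log2 fold change of -1.10. All 5 were lower in STIM KO in replicates 3 and 4, and in replicates 1 and 2 all but insc, which was higher there by 0.85 and had a pooled log2 fold change of 0.54. The 5 neuron markers were all higher in STIM KO in replicates 3 and 4, with a median difference of 0.81 in mean log2 CPM, beside 0.10 in replicates 1 and 2. The 5 cell division genes summed to 50.2 to 183 CPM in CS and 14.8 to 148 CPM in STIM KO. The 4 ring gland genes summed to 424 to 1442 CPM in CS and 109 to 434 CPM in STIM KO, and the 4 muscle genes to 722 to 5725 CPM and 530 to 2773 CPM. Of the 20 tested markers, 2 were lower in STIM KO without overlap, beside 3.01% of all genes. These were ase (295 to 420 CPM in CS, 106 to 241 CPM in STIM KO) and sad of the ring gland (256 to 941 CPM, 17.2 to 188 CPM). With the set term sad was called (edgeR adjusted p = 0.0305). Fat body, hemocyte and salivary gland markers were at or near 0 in all libraries. The part of these cell types in the values of the Sm ring genes and Cypl was not tested.

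Other genes of the machinery were looked at from a longer list of 36 core spliceosome genes, of which 25 were tested. At an unadjusted p under 0.05, 3 were lower and 1 was higher without the set term, 6 were lower and 2 higher with it, beside 2.96% and 3.54% of all genes without and 8.03% and 8.94% with it. None was called after adjustment, and the median log2 fold change was -0.33. The genotypes did not overlap for 3 of them (12%), all lower in STIM KO, beside 3.01% of all genes lower. LSm7, of the ring that U6 carries in place of the Sm proteins, had 12.6, 21.9, 14.1 and 23.8 CPM in CS against 7.88, 4.30, 2.86 and 3.41 CPM in STIM KO (log2 fold change -1.997, SE 0.60, edgeR adjusted p = 0.570). LSm7 has 3 transcripts, and its values rest on few reads: 4, 11, 31 and 58 in CS against 8, 3, 6 and 7 in STIM KO. Prp5, the helicase that lets U2 snRNP bind, had 231 to 368 CPM in CS and 96.5 to 178 CPM in STIM KO (-0.91, SE 0.40), and c12.1, of the group around Prp19, had 163 to 285 CPM and 77.5 to 154 CPM (-0.88, SE 0.42). The 8 tested genes of this group on the longer list, c12.1 among them, had a median log2 fold change of -0.004. Without the set term, 1 of these 8 was lower and 1 higher at an unadjusted p under 0.05 (edgeR), beside 2.96% and 3.54% of all genes. In replicates 3 and 4, 23 of the 25 tested genes of the longer list had a lower mean (92%). Beside this stand 87.5% of the 24 genes above, 47.5% of all genes and 57.1% of all genes with 1 transcript. A lower mean in this set was thus not particular to the 24 genes.

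The 15 tested genes of 20 other splicing regulators had a median log2 fold change of 0.17, and 1 was higher and none lower at an unadjusted p under 0.05 (edgeR, none after adjustment), near the 3.54% and 2.96% of all genes. In replicates 3 and 4, 8 of the 15 had a lower mean (53.3%, beside 47.5% of all genes). The genotypes did not overlap for 1 lower and 1 higher gene (6.67% each), beside 3.01% and 3.21% of all genes. RnpS1, an exon junction protein, was lower, at 261 to 281 CPM in CS and 84.7 to 211 CPM in STIM KO. The higher one was ps (pasilla), the fly Nova protein, at 0 to 18.7 CPM and 24.4 to 57.4 CPM. It had no read in CS replicate 1, where counting error alone allows up to 9.49 CPM. Of 12 other cyclophilin genes, relatives of Cypl by sequence, 5 were tested, with a median log2 fold change of 0.29, and for none of them did the genotypes not overlap. Cyp1, the fly cyclophilin A, had a log2 fold change of -1.26 (edgeR adjusted p = 0.840) and CG10907 of 1.99 (adjusted p = 0.650). In mean log2 CPM, Cyp1 differed by -1.34 in the shallow and by -1.09 in the deep set. With the set term its log2 fold change was -1.22 (SE 0.37, edgeR adjusted p = 0.130). CG10907 differed by 3.44 in the shallow and by 0.01 in the deep set, so its pooled value averages unlike values.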

How the data were processed

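Trimmed reads were aligned by the authors to dm6 using hisat2, and their deposited files hold raw htseq-count counts for 34463 RefSeq transcripts per library. The annotation version and counting mode are not given in the sources used here, and the kits do not mark strand. A deposited table of the authors' DESeq2 comparison holds their mean counts, fold changes and p-values and was not used. By identifier, 34412 transcripts were matched to gene symbols of RefSeq, and counts were summed per gene.

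The quasi-likelihood test of edgeR 4.0.16 (R 4.3.3) was run on genes that passed filterByExpr (min.count 10, min.total.count 15), scaled by TMM, with genotype as the only term, and p-values were adjusted by Benjamini-Hochberg over all genes. The SE is the log2 fold change over the root of F. A prior count of 2 was added for log2 CPM. For single genes, all 70 labelings were enumerated in an exact permutation test (2-sided). DESeq2 1.42.0 and limma 3.58.1 served as alternatives, with other scaling, filters, transcripts in place of genes, library set, replicate block and left-out libraries. The steps were tested on simulated data. Plots were made in matplotlib 3.10.9 (python 3.11.15). Where a gene has no read, up to 3 are allowed by counting error alone, which is 1.23 to 9.49 CPM by library.

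The genes and gene lists were chosen with earlier results of these data known, and exon length was looked at after seeing the data. Per-library values are given for Cypl, for genes whose genotypes do not overlap or that are called, and for the highest and lowest gene of each role. SmD1, SmE, SmF and Prp19 were added after their values were seen. Genes beyond the 35 were named where their genotypes do not overlap, and Cyp1 and CG10907 as the extremes of the cyclophilins.

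Residuals of same-numbered libraries correlated between genotypes at 0.377 to 0.776, and those of other numbers in the same set at 0.336 to 0.716. These ranges overlap, and CS replicate 1 correlated more with STIM KO replicate 2 (0.716) than with STIM KO replicate 1 (0.377). The data therefore do not pair the samples by number within a set. The pooled brains of a library are separately isolated RNA, and p-values measure the spread between such pools.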

Additional observations from a re-analysis of the deposited data

Results flagged for a closer look

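Of 50 groups of 4 libraries tested among the 25 genes, 2 had a single library far from the other 3, and chance gives about 1 in 20. Cypl was lower in STIM KO replicate 1 (11.8 CPM) than in the other STIM KO libraries (19.5 to 21.0 CPM), a gap of 0.872 of the range of the group. Prp19 was lower in STIM KO replicate 1 (134 CPM) than in the other STIM KO libraries (299 to 350 CPM), a gap of 0.836 of the range.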

How the results depend on the processing

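No gene of the 24 was called by edgeR without a set term, and 1 (SmD3) was called by DESeq2, with the library set as a term and by limma voom. Over all genes the calls were 0 in the main fit, 78 by DESeq2, 2 with library size only, 4 with every gene of at least 1 count, 39 with the set term, 16 with the replicate block, 133 in replicates 1 and 2 and 35 by voom. Genes of the 24 at an unadjusted p under 0.05 were 3, against 5 with the set term, 7 in replicates 1 and 2, 11 in replicates 3 and 4 and 6 by voom. The shares of all genes moved as well, from 6.5% to 17%, 22.2%, 19.5% and 14.3% in the same order. Their median log2 fold change of -0.26 became -0.42 with the set term, -0.39 with the replicate block, -0.44 in replicates 2 to 4, -0.0454 in replicates 1 and 2, -0.73 in replicates 3 and 4 and -0.66 by voom, and leaving out a library gave -0.45 (without STIM KO replicate 2) to -0.0903 (without CS replicate 2). With the set term, leaving out each library, an alternative chosen after seeing the data, gave 0 to 2 called genes of the 24, beside 2 to 62 of all genes. The interaction of genotype and set called 0 genes, 4 with every gene of at least 1 count (beside 2.45% of all genes), and 0 to 4 when a library was left out (beside 0% to 10.7%). The replicate block changed no other call. The median over all genes, 0.04, was -0.11 with every gene of at least 1 count, 0.11 without CS replicate 3 and 0.13 without CS replicate 4.

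Signs turned for genes whose pooled 95% interval held 0, though some of the turned values lay beyond their own spread. SmE was -0.47 with the set term, -0.48 with the replicate block, -0.12 in replicates 2 to 4, -1.64 in replicates 3 and 4 and -1.61 by voom. In replicates 2 to 4 SmD2 was -0.0806, crn -0.44 and Prp38 -0.10. In replicates 3 and 4 SmD2 was -0.996, crn -0.41, Prp38 -0.38, Sf3b5 -0.91, SC35 -0.14 and Prp31 -0.0534, and by voom SmD2 was -0.54, crn -0.10, Prp38 -0.18, Sf3b5 -0.71 and SC35 -0.0072. In replicates 1 and 2 SmF was 0.16 and Srp54 0.21. Leaving out a library gave -0.0174 to 0.63 for Prp31, -0.27 to 0.40 for SC35, -0.57 to 0.69 for SF2, -0.87 to 0.11 for Sf3a1, -0.30 to 0.67 for SmE, -1.21 to 0.0149 for SmF, -0.40 to 0.0602 for Srp54, -0.78 to 0.050 for U2af38 and -0.17 to 0.94 for crn. The cause of these turns was not tested. Cypl (-2.48 to -2.19 over all alternatives), SmB, SmD1, SmD3 and snRNP-U1-C kept their sign under every alternative. Other genes kept theirs in the fits without and with the set term, with the replicate block and within each set. Of these, U2A, noi, Sf3b2, snf, Prp8 and Prp19 were lower, and snRNP-U1-70K and Hel25E were higher. The 10 genes with at most 52 reads over the 8 libraries were too thinly counted to be tested.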
